A study of Mus musculus with 6 samples.

Results

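The cytochrome P450 genes are the genes of a large enzyme superfamily, chosen here as every gene of the deposited series table whose symbol has the form Cyp, a family number, a subfamily letter and a gene number. By that rule 94 of 51810 genes were members, in 16 families and 39 subfamilies. The rule leaves out 7 further Cyp symbols of that table, among them Cyp51, Cyp4a12a and Cyp4a12b, and the P450 genes named otherwise, such as Tbxas1 and Ptgis. The 6 libraries were polyadenylated RNA of mature medullary thymic epithelial cells (mTEChi in the labels), sorted as EpCAM-positive epithelium from the thymus of mice aged 4 to 5 weeks, 75000 cells being sorted for RNA. The 3 WT libraries have titles that read P53-NoCre and the genotype P53-WT. The 3 cKO libraries have the genotype P53-cKO, a conditional deletion of Trp53, the gene of the transcription factor p53. The labels name neither the Cre driver nor the strain, and they do not state whether the libraries are of different animals. P-values weigh the difference between the groups against the spread of the libraries within them. That spread may therefore be partly technical.

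P450 enzymes hold a heme group and put an oxygen atom on small lipophilic molecules. Those in the endoplasmic reticulum take electrons from the reductase Por, and those in mitochondria take them from the ferredoxin Fdx1 and its reductase Fdxr. Families Cyp1 to Cyp3 mostly oxidise drugs, toxins and odorants, in liver and in airway and olfactory epithelium, Cyp4 enzymes oxidise fatty acids and eicosanoids, and the remaining families make or break down sterols, bile acids, steroid hormones, retinoic acid and vitamin D. Medullary thymic epithelium transcribes many genes of other organs, partly under the regulator Aire, and shows their products to developing T cells. In people who lack AIRE, autoantibodies recognise several P450 enzymes, including the steroidogenic CYP11A1, CYP17A1 and CYP21A2 and the liver enzymes CYP1A2 and CYP2A6, the human counterpart of mouse Cyp2a5.

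The most abundant member, Cyp2a5, is nearly identical to a second member, Cyp2a4, which bears on how their reads were counted. Cyp2a5 converts coumarin and nicotine, and Cyp2a4 hydroxylates testosterone. Their coding sequences in the GENCODE M21 transcripts (GRCm38) were both 1485 bases long and differed at 23 of them, which is 98.45% identity, and the longest identical run was 216 bases. The stretch from coding base 550 to 669, counted from the first base of the start codon, holds 6 of these differences, shown in capitals, 5′ to 3′.
Cyp2a5: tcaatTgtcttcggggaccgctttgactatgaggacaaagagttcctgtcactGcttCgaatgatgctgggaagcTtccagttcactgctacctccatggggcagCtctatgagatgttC
Cyp2a4: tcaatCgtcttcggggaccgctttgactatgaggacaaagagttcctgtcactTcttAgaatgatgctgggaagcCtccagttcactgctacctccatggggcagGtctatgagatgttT
Of all 50-base stretches of its annotated transcripts, Cyp2a5 shared 37.0% with another gene and Cyp2a4 shared 38.0%. The sequences before the transcription starts were as close. In the RefSeq promoter table (GRCm38.p6), 249 bases before each start aligned without a gap and differed at 4, shown in capitals, at chr7:26835089-26835337 for Cyp2a5 and chr7:26306943-26307191 for Cyp2a4, both on the plus strand.
Cyp2a5: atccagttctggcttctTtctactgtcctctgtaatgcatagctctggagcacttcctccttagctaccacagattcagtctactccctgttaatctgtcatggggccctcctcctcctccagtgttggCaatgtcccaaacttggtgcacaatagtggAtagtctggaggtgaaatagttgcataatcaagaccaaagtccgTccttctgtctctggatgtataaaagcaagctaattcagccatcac
Cyp2a4: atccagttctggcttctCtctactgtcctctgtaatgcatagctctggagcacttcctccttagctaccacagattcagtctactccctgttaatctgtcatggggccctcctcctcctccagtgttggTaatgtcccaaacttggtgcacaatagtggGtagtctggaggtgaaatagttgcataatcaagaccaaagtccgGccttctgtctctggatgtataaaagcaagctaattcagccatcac
Both hold the letters TATAAA of a TATA box close to the RefSeq start. The annotation used for the counts starts both genes inside these stretches, at 26835305 for Cyp2a5 and 26307169 for Cyp2a4. By that annotation the letters TATAAA lie after the start of Cyp2a5 and end at the start of Cyp2a4. Levels differed far more than these sequences, at 739 TPM (transcript abundance per length, scaled to a fixed sum) for Cyp2a5 against 32.2 for Cyp2a4 over the 6 libraries. The TPM values are the authors' own and serve here for levels between genes.

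Promoter letters were not used in the choice of members. The RefSeq table held 83 promoters of 73 members, and TATAAA was found on either strand within 250 bases before the start in 28 of them (33.7%), against 12.4% of all 32851 promoters. A p53 half-site, the recognition sequence of a p53 dimer, whose consensus reads alike on both strands and was searched in the same window, was found in 6 of the 83 (7.23%) and in 7.13% of all promoters, a share close to the background. The members with a half-site were Cyp2f2, Cyp4f15, Cyp2c55, Cyp2c29, Cyp2c39 and Cyp2c38. The match in Cyp2f2 is shown because this gene is among those with the largest differences between the groups below. The 250 bases before its RefSeq start, chr7:27119705-27119954 on the plus strand, are printed with the match in capitals. The match ended 11 bases before the end of that stretch.
Cyp2f2: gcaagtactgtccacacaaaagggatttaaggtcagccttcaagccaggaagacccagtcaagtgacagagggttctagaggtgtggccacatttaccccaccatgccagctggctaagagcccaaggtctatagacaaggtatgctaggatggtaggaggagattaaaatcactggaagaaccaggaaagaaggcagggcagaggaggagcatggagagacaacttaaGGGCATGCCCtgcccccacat
The annotation used for the counts starts Cyp2f2 at 27119909, inside this stretch and before the match. A match of letters in a window is a description and not a binding site.

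Most P450 genes were present at low levels in these cells, and a few took nearly all of the transcripts. At 1 TPM or more in all 6 libraries, 51 of 94 members (54.3%) were detected, against 40.6% of all genes in the table. Of the 94, 14 had a mean of 10 TPM or more, 49 lay between 1 and 10 TPM and 31 lay under 1 TPM. The median member had 1.70 TPM and the median gene in the series had 0.653 TPM. Counts were present in all 6 libraries for 93 members. The exception, Cyp2c38, was at 0 in cKO library 1, where 0 counts allow up to 0.0629 CPM (counts scaled to library size). Cyp2a5, Cyp2g1, Cyp26a1 and Cyp2f2 together held 70.05% of the TPM of the family, and the leading 20 members held 91.0%. All of the P450 genes together took between 0.109% and 0.168% of the counts of a library, and library totals lay between 45457892 and 50128045 counts.

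**Figure D1:**
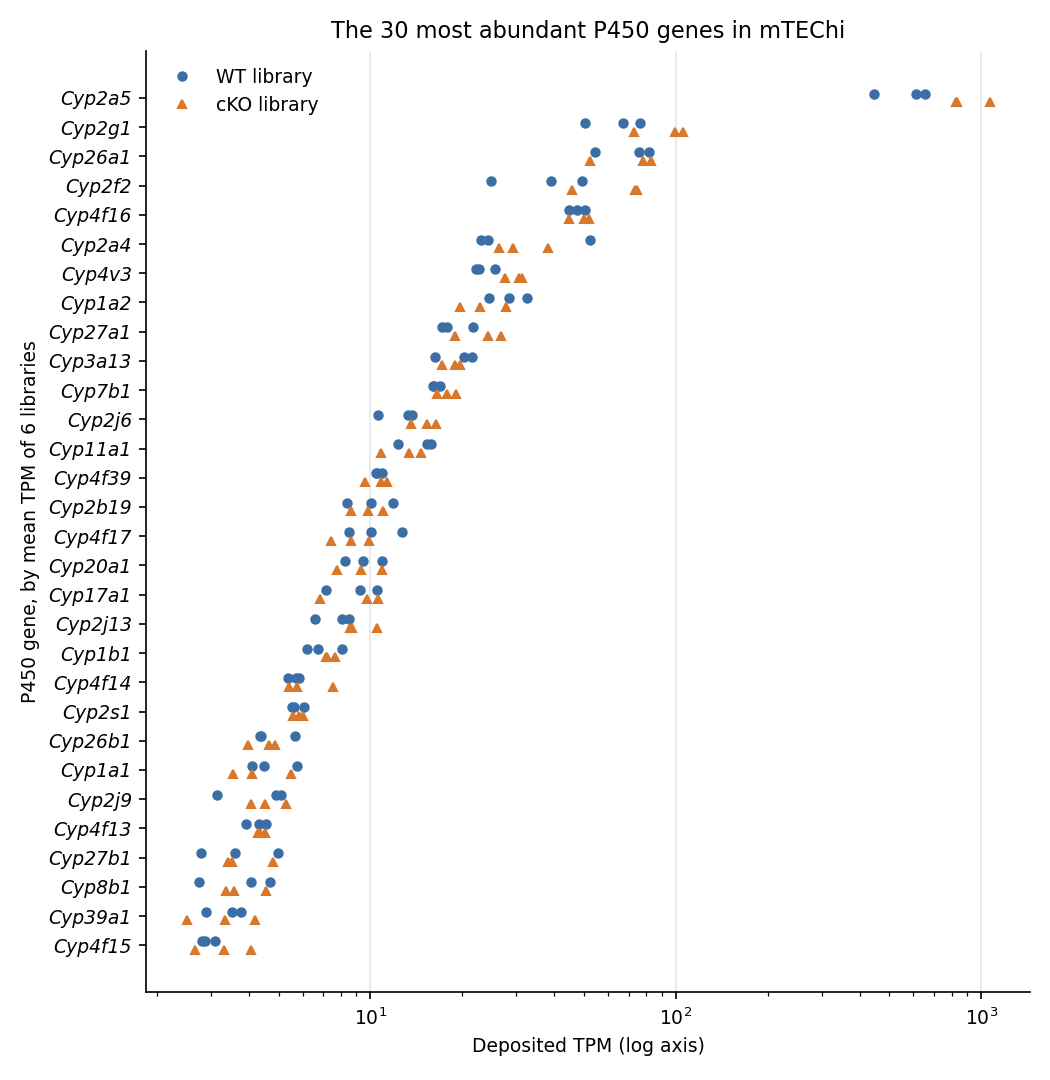
Deposited TPM (log axis) of the 30 P450 genes with the highest mean, 1 row a gene, with circles for the 3 WT and triangles for the 3 cKO libraries. Cyp2a5, at 444 to 654 TPM in WT and 828 to 1065 TPM in cKO, stands about an order of magnitude above the next gene, and in most rows the circles and triangles overlap.

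Cyp2 enzymes known from nasal and airway epithelium led the list, though Cyp2a5 is also the counterpart of the human liver enzyme CYP2A6. Cyp2a5 (chromosome 7, 26835305 to 26843548, plus strand) ranked 144th of all genes by mean TPM. It had 613, 654 and 444 TPM in WT libraries 1 to 3 and 832, 1065 and 828 TPM in cKO libraries 1 to 3. Cyp2g1, an enzyme of olfactory mucosa, had 76.2, 67.0 and 50.4 TPM in WT and 99.1, 106 and 73.0 TPM in cKO. Cyp2f2, the enzyme of airway club cells that activates naphthalene, had 49.4, 24.9 and 38.9 TPM in WT and 73.5, 74.5 and 45.7 TPM in cKO. For Cyp2a5 every cKO library lay above every WT library, and for Cyp2g1 and Cyp2f2 the lowest cKO library lay inside the WT range. Cyp2a4, described with its copy Cyp2a5, had 32.2 TPM. Next among the Cyp2 members were Cyp2j6 at 13.8 TPM and Cyp2j13 at 8.48 TPM, of the subfamily that epoxidises arachidonic acid, and Cyp2b19 at 9.95 TPM, an epoxygenase of keratinocytes. Other Cyp2 subfamilies known from liver were low. The 14 Cyp2c members clustered on chromosome 19 summed to 11.1 TPM and the 8 Cyp2d members to 9.83 TPM. Cyp2e1, the ethanol oxidising enzyme, had 1.92 TPM. Of their 50-base stretches, Cyp2c40 shared 60.3% and Cyp2c69 shared 54.3% with another gene. Reads with several alignments were left out, so the Cyp2c sum may be too low.

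Among the other families that act on foreign compounds, Cyp1a2, a liver enzyme that metabolises caffeine, led family Cyp1 with 28.4 ± 4.11 TPM in WT and 23.4 ± 4.16 TPM in cKO (SD, n = 3 each). Its neighbour Cyp1a1, which is induced through the receptor Ahr, had 4.58 TPM over all libraries, and Cyp1b1, an enzyme of extrahepatic tissue, had 7.17 TPM. Cyp3a13 led family Cyp3 with 19.3 ± 2.69 TPM in WT and 18.6 ± 1.26 TPM in cKO, and held 63.5% of that family's TPM. Cyp3a11, a main drug oxidising enzyme of mouse liver, had 1.45 TPM.

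Of the 17 Cyp4 genes, which oxidise fatty acids, 10 were detected at 1 TPM in every library. Cyp4f16 had the highest level, 47.5 ± 2.87 TPM in WT and 48.9 ± 3.88 TPM in cKO, and all 9 Cyp4f members were detected. Cyp4f39, whose human counterpart makes the acylceramides of the skin barrier, had 10.6 TPM in each group. Cyp4f17 had 9.53 TPM. Cyp4v3, the counterpart of the fatty acid hydroxylase mutated in Bietti crystalline dystrophy, had 22.2, 25.5 and 22.7 TPM in WT and 30.6, 27.5 and 31.3 TPM in cKO. The 7 members of the Cyp4a, Cyp4b and Cyp4x cluster on chromosome 4, best known from liver, kidney and lung, summed to 5.20 TPM, and none of them reached 1 TPM in every library.

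Cyp26a1, which removes retinoic acid, stood after Cyp2a5 and Cyp2g1, at 54.2, 81.9 and 76.0 TPM in WT and 52.5, 78.1 and 82.8 TPM in cKO. In both groups 1 library was well below the other two, and the groups overlapped throughout. The other retinoic acid enzymes Cyp26b1 and Cyp26c1 had 4.64 and 2.78 TPM. The vitamin D genes were low. Cyp27b1, which activates the vitamin, had 3.85 TPM, Cyp24a1, which inactivates it, had 2.56 TPM, and Cyp2r1, which acts in liver on the precursor, had 0.992 TPM.

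The genes of bile acid synthesis were present unevenly. Cyp27a1, the mitochondrial sterol hydroxylase found in many tissues, had 18.9 ± 2.47 TPM in WT and 23.3 ± 3.98 TPM in cKO. Cyp7b1, which hydroxylates oxysterols, had 16.4 ± 0.450 TPM in WT and 17.8 ± 1.29 TPM in cKO. Cyp8b1, which directs synthesis to cholic acid, had 3.84 TPM, and the oxysterol hydroxylase Cyp39a1 had 3.37 TPM. Cyp7a1, the rate-limiting enzyme of the classical pathway in liver, was next to last of all members at 0.151 TPM, and Cyp46a1, the cholesterol hydroxylase of neurons, had 0.928 TPM.

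The 6 genes of steroid hormone synthesis were all counted in every library. Cyp11a1, which cuts the cholesterol side chain, had 12.3, 15.3 and 15.8 TPM in WT and 10.8, 13.4 and 14.6 TPM in cKO. Cyp17a1, which leads to androgens, had 9.02 TPM over all libraries. The adrenal enzymes Cyp11b1 and Cyp11b2, of glucocorticoid and aldosterone synthesis, had 2.02 and 1.93 TPM. Cyp19a1, the aromatase that makes oestrogen, had 0.927 TPM. Cyp21a1, the adrenal hydroxylase whose human product is the main autoantigen of autoimmune Addison disease, had the lowest level of the 6, 0.675 TPM, and 21.3% of its 50-base stretches were shared with its pseudogene Cyp21a2-ps, so its value is uncertain. The summed TPM of the 6 genes was 29.5 ± 1.92 in WT and 27.1 ± 0.766 in cKO. The groups did not overlap, but narrowly, with 28.2 in the lowest WT library and 27.9 in the highest cKO library. Cyp20a1, an enzyme with no settled substrate, had 9.44 TPM.

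Genes of the superfamily often stand side by side. With gaps of at most 500 kb joined, 71 members fell into 10 clusters. The interval of chromosome 7 from 25802475 to 27158668 (mm10) held 13 members, Cyp2s1, Cyp2b10, Cyp2b13, Cyp2b9, Cyp2a4, Cyp2b23, Cyp2b19, Cyp2g1, Cyp2a5, Cyp2a22, Cyp2a12, Cyp2f2 and Cyp2t4 in that order, and 68.9% of the TPM of all members. Within it levels ran from 739 TPM for Cyp2a5 to 0.120 TPM for Cyp2a22, the next member along. Cyp2g1 and Cyp2a5 lie 14.1 kb apart. The summed TPM of the 13 was 787, 794 and 608 in WT and 1057, 1306 and 995 in cKO, so the groups did not overlap. Cyp2a5 alone held 80.0% of the TPM of the 13, so this sum largely follows that gene. For the members outside this interval the sum was 412 ± 14.2 TPM in WT and 423 ± 26.3 TPM in cKO, and the groups overlapped.

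Set against WT, the cKO libraries show the P450 transcripts of medullary cells that lack p53. Trp53 itself checks the labels: it had 5351, 4837 and 5314 counts in WT and 386, 361 and 369 in cKO, a log2 fold change of -3.81 (SE 0.0999, edgeR adjusted p = 5.76e-10), so every library matched its label. Of the 94 P450 genes 89 passed the filter on low counts and were tested, and none passed an adjusted p of 0.05 in edgeR's quasi-likelihood test, where 0.0596% of all 28543 genes tested did (0.0245% higher and 0.035% lower in cKO). The smallest adjusted p of a member was 0.259, for Cyp2a5. At an unadjusted p under 0.05 there were 11 members (12.4%), 7 with a higher and 4 with a lower mean in cKO, against 8.51% of all genes (4.28% higher and 4.23% lower). DESeq2 called 2 members, Cyp2a5 and Cyp2f2, both higher in cKO, where it called 0.62% of all genes, and limma-voom called 0, where it called 0.0175%. Log2 fold changes of the tested members had a median of -0.04, against -0.01 for all genes tested, with 38 above 0 and 51 below. The median of all genes tested varied with level. It was -0.05 between 1 and 2 CPM and 0.04 between 64 and 128 CPM. The 5 members not tested were Cyp2d11, Cyp2j8, Cyp4a32, Cyp2c38 and Cyp2a22.

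**Figure D2:**
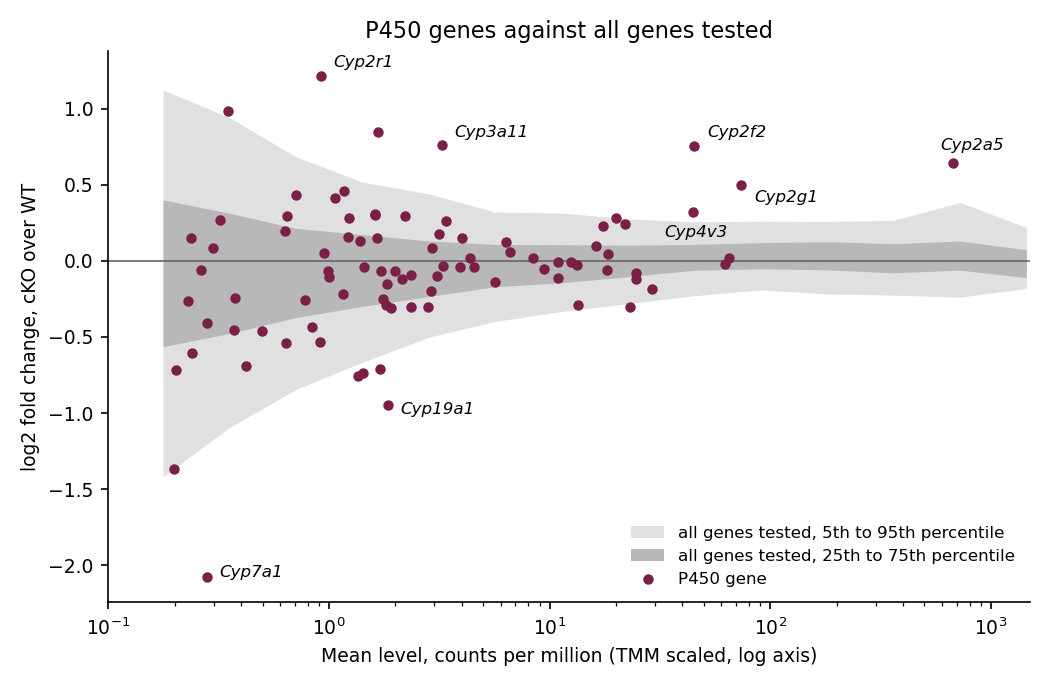
Log2 fold change of cKO over WT against mean level (CPM with TMM scaling, log axis) for the 89 tested P450 genes (points), over the bands that hold the middle of all genes tested at each level. Most points lie inside the light band. At high level, Cyp2a5 at 0.65, Cyp2g1 at 0.50, Cyp2f2 at 0.76 and Cyp4v3 at 0.32 lie above it, and Cyp1a2 at -0.30 lies below it.

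In 11 of the 89 tested members (12.4%) the CPM of the 3 cKO libraries did not overlap those of the 3 WT libraries, against 14.4% of all genes tested, a share near the background of 7.14% higher and 7.28% lower. The 5 with higher cKO libraries were Cyp2a5, Cyp4v3, Cyp2j6, Cyp3a25 and Cyp2r1. The 6 with lower cKO libraries were Cyp19a1, Cyp46a1, Cyp4b1, Cyp7a1, Cyp2c66 and Cyp4a29.

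Cyp2a5 had 25203, 29167 and 20088 counts in WT and 35376, 43666 and 38252 in cKO. That was 525 ± 105 CPM over the WT libraries (SD, n = 3) and 821 ± 112 CPM over the cKO libraries (SD, n = 3), a log2 fold change of 0.65 (SE 0.147). The edgeR adjusted p was 0.259, and DESeq2 gave an adjusted p of 0.00269, with a range of 7.42e-04 to 0.571 over all alternatives, so the call depends on the test and the design of the fit, while the log2 fold change stayed between 0.50 and 0.78. In a bulk sample, more cells with a transcript and more RNA per cell cannot be told apart.

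Its neighbour Cyp2g1 had 3245, 3092 and 2359 counts in WT and 4359, 4491 and 3486 in cKO, with WT library 3 and cKO library 3 the lowest of their groups. The log2 fold change was 0.50 (SE 0.156, edgeR adjusted p = 0.420). Cyp2f2 had 1984, 1084 and 1717 counts in WT and 3053, 2983 and 2063 in cKO. Its log2 fold change was 0.76 (SE 0.268, edgeR adjusted p = 0.526), and DESeq2 gave an adjusted p of 0.0250, with 0.958 as the highest over all alternatives. Of its exon bases 13.5% overlap Gm15883, a gene on the opposite strand with 357 counts on average, and the counting did not use strand. Gm15883 had a log2 fold change of 0.80 (SE 0.355), so the antisense gene and Cyp2f2 cannot be told apart where they overlap.

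Within the chromosome 7 interval the members' values were mixed. Of the 12 tested members there, 5 had a log2 fold change above 0 and 7 below, and besides Cyp2a5 none had groups that did not overlap. Cyp2b19, which lies 36.3 kb before Cyp2g1, had -0.06, Cyp2s1, an enzyme of epithelia, had -0.01, and Cyp2b9 had the highest estimate, 0.99, on 6 to 27 counts a library. The 11 other genes tested in the interval had a median log2 fold change of -0.05 and ranged from -0.94 to 0.80.

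**Figure D3:**
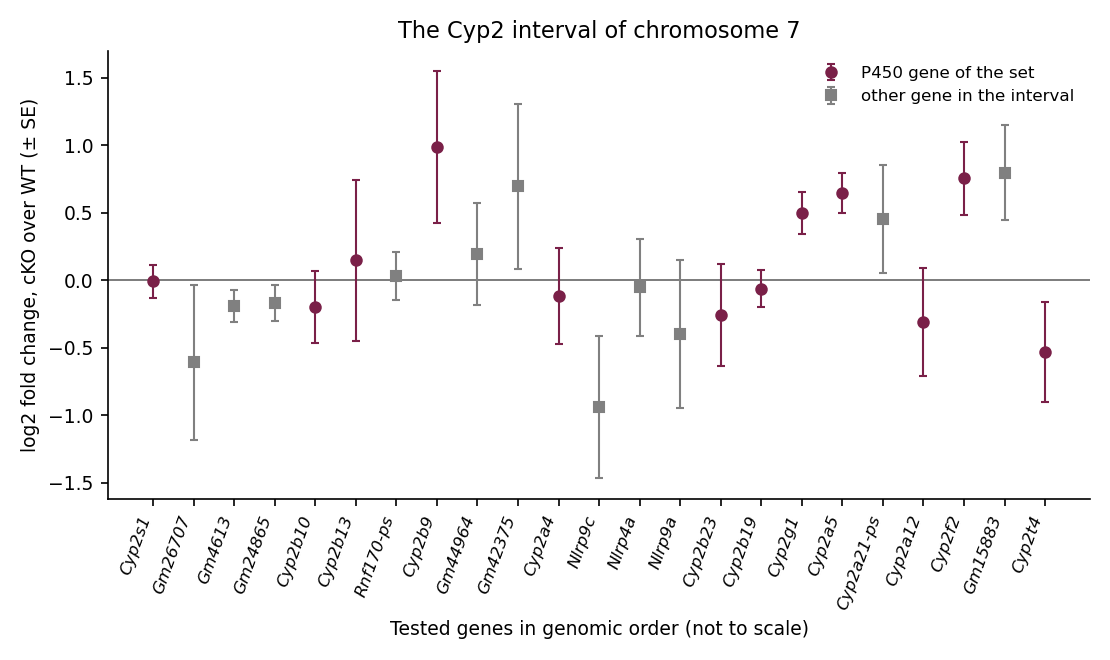
Log2 fold change of cKO over WT, with its SE, for the 23 genes tested in the Cyp2 interval of chromosome 7, in genomic order and not to scale. Cyp2g1, Cyp2a5 and Cyp2f2 have the values farthest above 0 for their error, while Cyp2s1 and Cyp2b19 lie at 0 within theirs.

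The values of Cyp2a4, the near-identical copy of Cyp2a5, overlapped between the groups. It had 836, 857 and 1982 counts in WT and 1043, 1310 and 1018 in cKO, a log2 fold change of -0.12 (SE 0.355, edgeR adjusted p = 0.965). WT library 3 stood apart, and without it the value was 0.38. As a percentage of the Cyp2a5 counts, Cyp2a4 took 3.32%, 2.94% and 9.87% in WT and 2.95%, 3.0% and 2.66% in cKO. WT library 3 was thus the library with the most Cyp2a4 and the fewest Cyp2a5 counts. Whether reads passed between the copies there was not tested. The deposited counts leave out reads with several alignments, per the file headers, so reads from the shared stretches are missing from both. The TPM of both genes together was 637, 677 and 497 in WT and 861, 1103 and 855 in cKO, so the groups stayed apart for the sum. The pseudogene Cyp2a21-ps, downstream of Cyp2a5, had 581, 1352 and 1903 counts in WT and 1664, 1760 and 1825 in cKO.

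**Figure D4:**
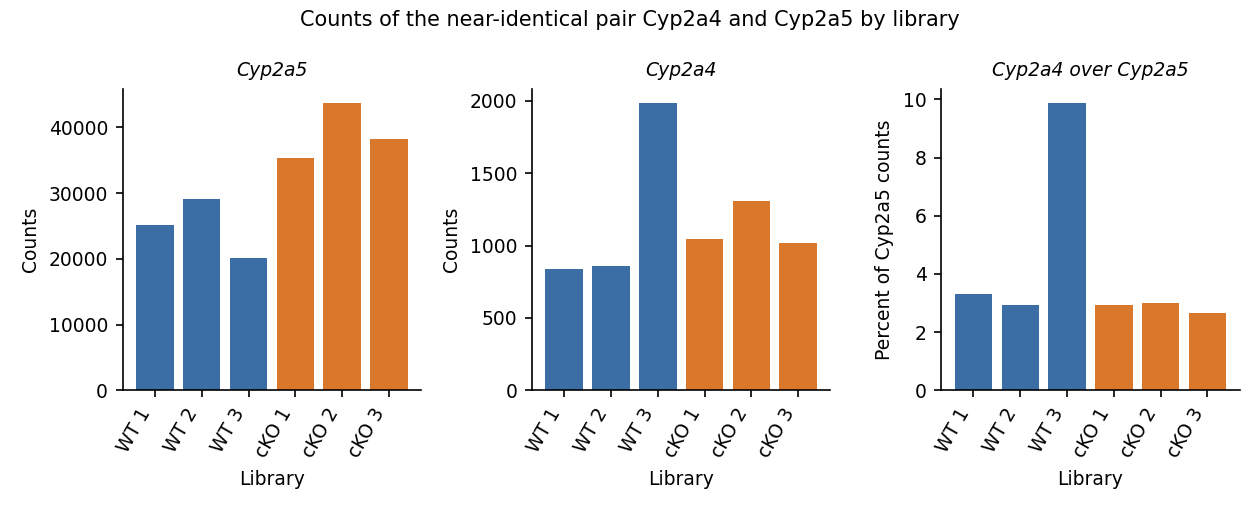
Counts of Cyp2a5 and Cyp2a4 by library, and Cyp2a4 counts as a percentage of Cyp2a5 counts, with WT in blue and cKO in orange. WT library 3 holds 1982 Cyp2a4 counts and a percentage of 9.87, where the other 5 libraries lie between 2.66% and 3.32%.

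Outside that interval, the members named for a small p-value or for groups that lay apart were of very unequal level. Cyp4v3 had 39.7 ± 4.06 CPM in WT, where cKO had 49.6 ± 4.14 CPM, a log2 fold change of 0.32 (SE 0.104, edgeR adjusted p = 0.419). Gm45753 overlaps 8.22% of its exon bases on the same strand. Cyp2j6 had 12.5 ± 1.67 TPM in WT and 15.1 ± 1.46 TPM in cKO, a log2 fold change of 0.25 (SE 0.124). Cyp3a11 had 94, 145 and 104 counts in WT and 240, 197 and 145 in cKO, a log2 fold change of 0.76 (SE 0.253, edgeR adjusted p = 0.425), and cKO library 3 equalled the highest WT library in counts. Cyp2r1 had the largest positive value, 1.22 (SE 0.423, edgeR adjusted p = 0.451), on 14, 29 and 36 counts in WT and 45, 87 and 51 in cKO. Cyp2d34, which follows the 10 members with the smallest p-values and is named after its value was seen, had 67, 64 and 37 counts in WT and 127, 124 and 51 in cKO, a log2 fold change of 0.84 (SE 0.386, edgeR adjusted p = 0.586). Besides Cyp2r1, the vitamin D genes had values near 0, 0.15 for Cyp24a1 and 0.02 for Cyp27b1.

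Cyp19a1 had 119, 100 and 128 counts in WT and 42, 53 and 87 in cKO, a log2 fold change of -0.95 (SE 0.288, edgeR adjusted p = 0.385). It was the steroid gene with the lowest value, and 5 of the 6 steroid genes had a value below 0: Cyp21a1 had -0.54, Cyp11b1 -0.30, Cyp11a1 -0.18 and Cyp17a1 -0.01, with Cyp11b2 at 0.13. These signs were not set against genes of equal level. Cyp46a1 had 65, 75 and 102 counts in WT and 53, 33 and 58 in cKO, a log2 fold change of -0.76 (SE 0.309, edgeR adjusted p = 0.536). Cyp4b1, a lung enzyme that acts on fatty acids and toxins, had 86, 73 and 94 counts in WT and 42, 38 and 74 in cKO, a log2 fold change of -0.73 (SE 0.307, edgeR adjusted p = 0.546). Cyp7a1 had 11, 22 and 32 counts in WT and 8, 5 and 2 in cKO, the lowest value of all tested members, -2.08 (SE 0.677, edgeR adjusted p = 0.414). On the CPM scale all of these 4 genes had cKO libraries below every WT library (for Cyp4b1, 1.48 CPM in cKO library 3 and 1.54 CPM in WT library 2), at depths where a single library holds few counts.

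For most of the abundant members the groups lay within the spread of their libraries. The log2 fold change was -0.02 (SE 0.224) for Cyp26a1, 0.02 (SE 0.0959) for Cyp4f16, -0.08 (SE 0.123) for Cyp3a13 and 0.10 (SE 0.114) for Cyp7b1. It was -0.30 (SE 0.155) for Cyp1a2, 0.28 (SE 0.136) for Cyp27a1 and -0.29 (SE 0.156) for Cyp4f17. For Cyp4f39, Cyp20a1, Cyp1b1, Cyp8b1 and Cyp39a1 it lay between -0.05 and 0.04, and Cyp2j13 had 0.23. The spread between libraries of a group was taken as the SD of log2 CPM, with a small constant added before the log. That constant lowers the SD most at low levels, so the level bands cannot be compared with each other. At 10 CPM or more the median SD was 0.184 for 21 members and 0.124 for 12859 genes. Between 1 and 10 CPM it was 0.273 for members and 0.227 for all genes, and under 1 CPM 0.212 and 0.267. By this measure the most variable were Cyp2c23, Cyp2a12, Cyp2d34 and Cyp2a4.

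The genes that serve or control P450 enzymes were given as 8 lists with 95 genes in all, each of which was tested, and none passed an adjusted p of 0.05 in edgeR. Log2 fold changes were above 0 for 7 of 8 electron donors and partners, 6 of 10 heme genes, 14 of 20 receptors and factors, 2 of 5 P450 genes outside the symbol pattern, 2 of 11 retinoid genes, 6 of 17 steroid and bile acid genes, 6 of 9 eicosanoid genes and 11 of 15 conjugation genes. These counts were not set against genes of equal level, whose median varied as given above. Por, the electron donor, had 26.9 ± 0.533 TPM in WT and 33.6 ± 2.91 TPM in cKO (log2 fold change 0.30, SE 0.0938, edgeR adjusted p = 0.404), and Pgrmc1, a heme-binding partner of P450 enzymes, was the most abundant at 656 TPM. Of the 10 genes of heme synthesis and breakdown, the heme oxygenase Hmox2 had the smallest p (log2 fold change 0.21, edgeR adjusted p = 0.513), and Hmox1 was the most abundant at 157 TPM. Among 20 receptors and factors, the vitamin D receptor Vdr had 72.2 ± 2.02 TPM in WT and 84.6 ± 3.25 TPM in cKO (log2 fold change 0.21, edgeR adjusted p = 0.451), while the liver factor Cebpa led with 89.1 TPM. The xenobiotic receptors were lower, with Ahr at 2.33 TPM, Nr1i2 at 2.71 TPM and Nr1i3 at 7.52 TPM.

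Of 5 P450 genes outside the symbol pattern, Cyp51, the sterol demethylase of cholesterol synthesis, had both the highest level, 52.9 TPM, and the smallest p (log2 fold change 0.24, edgeR adjusted p = 0.468). Of 11 genes of retinoid metabolism, Aldh1a2, which makes the retinoic acid that Cyp26a1 removes, had 13.1 ± 2.31 TPM in WT and 8.65 ± 2.44 TPM in cKO (log2 fold change -0.62, edgeR adjusted p = 0.442), and the binding protein Crabp1 led with 148 TPM. Of 17 steroid and bile acid genes, Hsd11b1, which regenerates active glucocorticoid, had 6.26 ± 0.988 TPM in WT and 9.59 ± 1.12 TPM in cKO (log2 fold change 0.59, edgeR adjusted p = 0.264), and Hsd3b7 led with 40.3 TPM. Of 9 eicosanoid genes, Ephx1, the epoxide hydrolase that acts on P450 products, had 29.5 ± 3.16 TPM in WT and 20.2 ± 2.02 TPM in cKO, the smallest adjusted p of all 95 genes (log2 fold change -0.57, SE 0.121, edgeR adjusted p = 0.167). Alox12e led that list with 569 TPM. Of 15 conjugation genes, Gsta1 had the smallest p (log2 fold change 0.38, edgeR adjusted p = 0.425) and Gstm1 the highest level, 101 TPM. The median log2 fold change of the 8 lists lay between -0.28 and 0.10.

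The labelled cell type was checked against its markers. The 7 markers of medullary epithelium summed to between 11937 and 13216 CPM over the 6 libraries. Of these 7, 2 were lower in every cKO library than in every WT library, against 7.28% of all genes tested. Aire was 1 of the 2 (log2 fold change -0.32, edgeR adjusted p = 0.516). Medullary epithelium holds small populations that take on the programme of other tissues. Their markers were given beside the P450 genes that such tissues use. The 5 airway secretory markers, led by Bpifa1, summed to 199 to 260 CPM in WT and 248 to 365 CPM in cKO, and the 7 hepatocyte markers to 152 to 215 CPM in WT and 180 to 216 CPM in cKO. The 7 enterocyte markers summed to 660 to 868 CPM in WT and 829 to 952 CPM in cKO, the 5 keratinocyte markers to 159 to 186 and 159 to 212 CPM, the 4 sebaceous markers to 297 to 350 and 337 to 402 CPM, and the 4 steroidogenic markers to 35.7 to 40.7 and 29.8 to 42.7 CPM. Of the cells that a sort can carry along, red cell markers summed to 54.6 to 58.7 CPM in WT and 31.8 to 49.6 CPM in cKO. The 4 genes listed as cortical epithelial markers, Foxn1 among them, summed to 338 to 368 CPM in WT and 283 to 326 CPM in cKO. In both of these sums the groups did not overlap. Of the 4 cortical markers, 1 had groups that did not overlap, lower in cKO. So had 2 of 4 red cell markers and 1 of 5 keratinocyte markers. For enterocyte markers 2 of 7 were higher without overlap, and of 4 B cell markers 1 was higher and 1 lower. Of all genes tested, 14.4% had groups that did not overlap. Foxn1 was the most abundant cortical marker and had the smallest p of the 4 (edgeR adjusted p = 0.0506). Whether cortical cells differed in number, or these genes differed within medullary cells, was not tested. The 5 myeloid markers summed to 503 to 679 CPM in WT and 615 to 901 CPM in cKO, and the thymocyte, B cell, fibroblast and endothelial sums also overlapped. No marker was at 0 in all libraries and none passed an adjusted p of 0.05 in edgeR. The part of any of these cell types in the P450 values was not tested.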

How the data were processed

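Counts were deposited as whole numbers of reads per gene, without normalization. The submitters' processing notes list TopHat2 2.1.1, SAMtools 1.9, Subread 2.0.1 and the build mm10. Per the file headers, featureCounts 2.0.0 counted reads over exons of Ensembl release 99, ignoring strand, counting a read for every gene it overlaps and leaving out reads with several alignments. The authors' TPM in the series table matched counts per kilobase rescaled, to within 0.000834% above 1 TPM, and the table's counts equalled those of the per-sample files for all of its 51810 genes.

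The test was edgeR 4.0.16 (R 4.3.3) on all 55385 counted genes, with TMM scaling, filterByExpr and the robust quasi-likelihood F test. P-values were adjusted by Benjamini-Hochberg over the 28543 genes tested, at a threshold of 0.05. Log2 fold changes are cKO over WT, and CPM are TMM scaled except for the floor of 3 counts. Scaled by library totals alone, this floor corresponded to 0.0598 to 0.0660 CPM and covers counting error only. Members were named where they were among the 20 highest in mean TPM, had one of the 10 smallest p-values or led their family, and of each other list the gene with the smallest p and the one with the highest TPM. Alternatives were DESeq2 1.42.0, limma 3.58.1, other scalings and filters, the replicate number as a block, and each library left out. The code was tested on simulated data. Promoters came from RefSeq (GRCm38.p6) and coding sequences from GENCODE M21, aligned with Biopython 1.88. The members, lists and tests were chosen with earlier results of these data known. No protein sequence was used here.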

Additional observations from a re-analysis of the deposited data

How the results depend on the processing

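The finding that no P450 gene passed the adjusted threshold held with RLE, upper-quartile and library-total scaling, without a filter, with a filter of 1 CPM in 3 libraries, without the robust fit, with the genes of the series table alone, with limma-voom and without any single library (0 to 0 members). It did not hold with DESeq2, which called 2 members of 177 genes. The number of all genes called, 17, was 5 with limma-voom, 160 without a filter and 6 without the robust fit, and lay between 6 and 16 with 1 library left out, at 7 without WT library 1, 6 without WT library 3 and 7 without cKO library 2. The median log2 fold change of the members lay between -0.05 and 0.02 over the left-out libraries, and the number detected between 51 and 52.

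A fit that takes the replicate number as a block called 203 of 28543 genes, among them 2 members, Cyp2a5 (adjusted p = 7.42e-04) and Cyp2g1 (adjusted p = 0.00612). Deviations of same-numbered WT and cKO libraries correlated at 0.113, 0.0544 and 0.0755 over genes, so the numbers were not taken to pair the samples, although each library correlated best with its own number.

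Of the 30 named members, 20 kept the sign of their log2 fold change under every alternative that could be run for them. The filter of 1 CPM in 3 libraries removed Cyp21a1, Cyp2r1 and Cyp7a1. The 10 others had values near 0. On limma fits of log2(TPM + 1) and log2(TPM + 0.1) the sign turned for Cyp26a1 (0.00364 and 0.00360), Cyp2a4 (0.00157 and 0.00381), Cyp17a1 (0.00985 and 0.0102) and Cyp8b1 (0.0110 and 0.0184). With 1 library left out the range crossed 0 for Cyp26a1 (-0.19 to 0.16), Cyp2a4 (-0.31 to 0.38), Cyp17a1 (-0.13 to 0.15), Cyp8b1 (-0.24 to 0.14), Cyp39a1 (-0.22 to 0.14), Cyp20a1 (-0.17 to 0.0517), Cyp2b19 (-0.17 to 0.0406), Cyp4f16 (-0.0440 to 0.0876), Cyp4f39 (-0.0651 to 0.0274) and Cyp1b1 (-0.0216 to 0.16). Without a change of sign, leaving out 1 library moved the value by over 1.5 times for Cyp1a2 (-0.47 to -0.19), Cyp27a1 (0.18 to 0.40), Cyp4f17 (-0.40 to -0.15), Cyp2j6 (0.14 to 0.31), Cyp2j13 (0.13 to 0.33), Cyp21a1 (-0.93 to -0.26), Cyp11a1 (-0.31 to -0.0656), Cyp24a1 (0.0535 to 0.29), Cyp3a13 (-0.18 to -0.0139) and Cyp7b1 (0.0540 to 0.13). Depth limits the low members most: Cyp7a1 had 15 counts in the 3 cKO libraries together.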
